A study of Mus musculus with 12 samples.

Results

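Acyl-CoA dehydrogenases are the flavin enzymes that open each round of fatty acid beta-oxidation in mitochondria, and each takes acyl-CoA esters of its own chain length. They were followed here at the transcript level in colonocytes, the epithelial cells of the colon, of germfree (GF) and conventionally raised (CONV) mice. Members were the rows of the deposited table whose symbol was Acads, Acadm, Acadl, Acadvl, Acad8, Acad9 or Acadsb. Of these 7 genes, 5 had a row among 15154 rows in all, and Acad9 and Acadsb were not analysed here. All 5 passed the filter on dim rows, among 8107 genes tested.

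The study measured colonocytes isolated from the colon of C57BL/6 mice on Illumina bead arrays. The GF group was 6 samples of mice held in isolators without microbes, and the CONV group was 6 samples of mice raised with a normal microbiota. No other allele or agent is named for either group, and the labels give no age and do not say whether a sample pooled several mice. Each group had 3 samples in batch 1 and 3 in batch 2, as the labels call them. The p-values measure the spread between samples that the labels call biological replicates.

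Each dehydrogenase removes a pair of hydrogens from its acyl-CoA and hands the electrons to electron transfer flavoprotein (Etfa and Etfb), which passes them through its dehydrogenase (Etfdh) to the ubiquinone of the respiratory chain. Acads codes for the short-chain enzyme, whose main substrate is butyryl-CoA, and butyrate made by gut bacteria is a main fuel of colonocytes. Acadm, Acadl and Acadvl code for the medium, long and very long chain enzymes, the last of which sits on the inner mitochondrial membrane. Acad8 codes for isobutyryl-CoA dehydrogenase, which belongs to the breakdown of valine.

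In GF colonocytes the short-chain gene Acads was lower in both batches, the medium-chain gene Acadm did not pass the test, and the long-chain genes Acadl and Acadvl were lower over both batches together. Acadl was lower by 2.21-fold in batch 1 and by 1.07-fold, without passing the test, in batch 2, and this difference between the batches passed its own test, though its size moved with the background setting. Of the 5 members 3 were called over both batches, all lower in GF, against 12.0% of all tested genes called as lower and 23.2% called in either direction. Within batch 1, 3 of the 5 were called as lower, against 11.6% of all genes, and within batch 2, 2 of the 5, against 8.92%. In the plot of signal on each array, GF arrays lay below all CONV arrays for 4 of 5 members in batch 1 (28.4% of all genes) and for 2 of 5 in batch 2 (12.9% of all genes). One member, Acadm, had its GF arrays above all CONV arrays in batch 2, where 13.2% of all genes did. Fewer cells of a type and less RNA per cell cannot be told apart in such bulk samples.

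**Figure D1:**
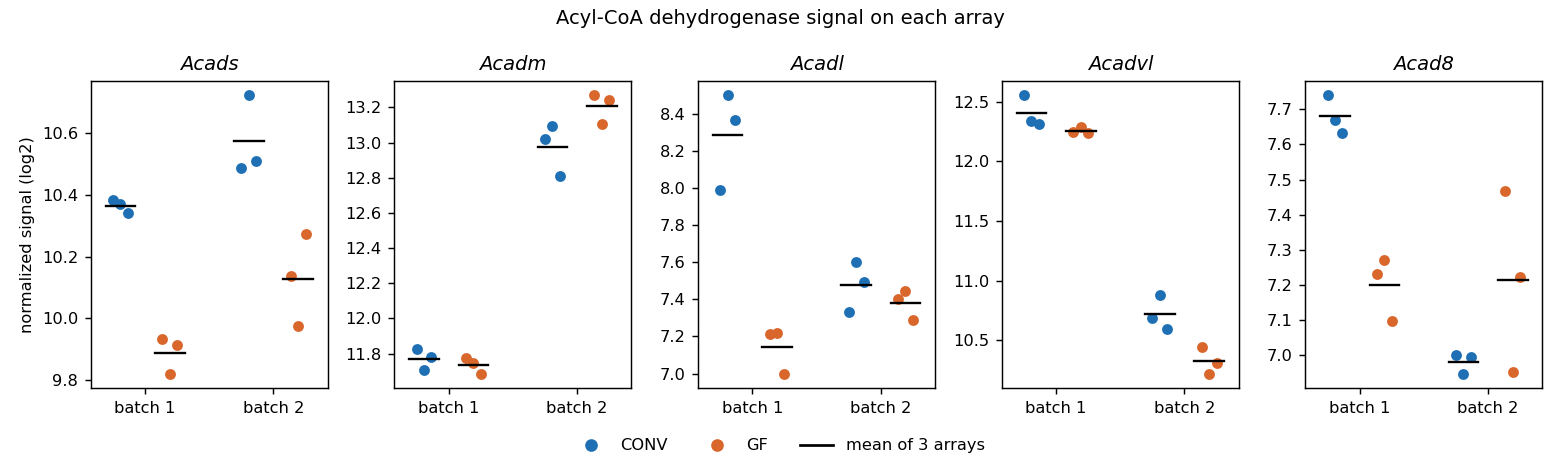
Normalized signal (log2, vertical axis) of the 5 members on each of 12 arrays, by batch, with CONV in blue, GF in orange and a line at the mean of 3 arrays; each panel has its own scale. Acads lay lower on the 3 GF arrays than on the 3 CONV arrays in both batches, while Acadl was apart in batch 1 and overlapped in batch 2.

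With detection taken as a deposited detection p under 0.05, the arrays of batch 1 had 7090 to 7402 detected rows and those of batch 2 had 6089 to 6470. Median deposited intensity was 76.6 to 77.9 in batch 1 and 201 to 202 in batch 2, and the inferred background mean was 56.6 to 58.7 and 182 to 183. Levels of the batches are therefore given side by side and were not compared. Of 11 colonocyte markers 7 had a row, and all 7 passed the filter, among them Epcam, Vil1 and Krt20, while Car1 and Slc26a3 were not analysed here. Over both batches 1 of the 7 was called higher in GF and 1 lower. Of all 8107 tested genes 908 were called higher and 12.0% lower. The colonocyte markers summed to 15.09 to 15.18 on CONV and 15.24 to 15.34 on GF arrays of batch 1 (log2 of summed normalized signal). In batch 2 the groups overlapped for this list. Of 7 markers of proliferating crypt cells 6 were tested and 6 were lower in GF, against 12.0% of all tested genes. Their summed level was 12.3 to 12.5 on CONV and 11.4 to 11.5 on GF arrays of batch 1. In batch 2 it was 12.1 to 12.2 and 11.2 to 11.5 (log2 of summed normalized signal). Of 8 small-intestinal enterocyte markers 4 were tested and 4 were higher in GF, where 908 of all 8107 tested genes were. Their list had a summed level of 8.49 to 10.8 on CONV and 10.9 to 11.0 on GF arrays of batch 1. In batch 2 it was 8.93 to 9.20 and 11.1 to 11.6. Goblet markers, with 4 of 7 genes in the table, summed to 14.7 to 14.8 on CONV and 15.5 to 15.6 on GF arrays of batch 1, and overlapped in batch 2, where the GF arrays spanned 15.9 to 16.1. Of these 4 genes 2 were called higher in GF and 1 lower over both batches, where 908 of all 8107 genes were higher and 12.0% lower. Enteroendocrine markers, with 5 of 6 genes in the table, summed to 11.8 to 12.0 and 12.9 in batch 1 and to 12.6 to 12.9 and 13.1 to 13.7 in batch 2. Of 4 enteroendocrine genes tested 1 was called higher in GF and none lower, against the same shares of all genes. Of 5 markers of B and plasma cells the 2 with a row (Cd79b and Jchain) were below the filter, and of 6 T cell markers 3 had a row and Cd8a and Cd2 were below it. In batch 1, the batch where Acadl and Acad8 fell, the T cell, macrophage, fibroblast and muscle, and endothelial lists did not overlap between the groups either. Among single genes, 28.4% had all GF arrays below all CONV arrays in that batch, which is the direction of the macrophage list only. The other lists named lay higher in GF, and the share of genes in that direction is not given here. A share of single genes is also not a share of summed lists. T cell markers summed to 6.82 to 6.90 on CONV and 7.47 to 7.48 on GF arrays, and macrophage markers (4 of 5 with a row) to 9.43 to 9.64 and 9.11 to 9.16. Fibroblast and muscle markers (4 of 8) summed to 7.32 to 7.42 on CONV and 7.67 to 7.77 on GF arrays, and endothelial markers (3 of 3) to 6.93 to 6.97 and 7.07 to 7.24. In batch 2 all 4 lists overlapped. Over both batches limma called 1 of 3 tested macrophage markers higher in GF and 1 lower, against the same shares of all genes. It called no T cell, fibroblast and muscle or endothelial marker. The sums of all lists take in rows below the filter, such as Csf1r, Col3a1, Vim and Cdh5. The part of these markers in the changes of the dehydrogenases was not tested.

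The 250 bases before the RefSeq start site of each chain-length gene are shown because 3 of these 4 genes were called in the same direction. All 4 genes matched the RefSeq promoter table (build GRCm38.p6), and the regions are written 5′ to 3′ along the gene. Capitals mark the nuclear receptor core motif AGGTCA or the GC box GGGCGG on either strand. These motifs do not overlap in these regions, and they were chosen after the sequences were seen.
Acads (chr5:115119347-115119596, minus strand): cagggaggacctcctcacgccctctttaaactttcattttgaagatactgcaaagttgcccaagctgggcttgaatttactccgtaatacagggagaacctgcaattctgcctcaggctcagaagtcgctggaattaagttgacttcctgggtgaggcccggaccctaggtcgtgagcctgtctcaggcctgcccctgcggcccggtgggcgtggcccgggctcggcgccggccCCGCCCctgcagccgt
Acadm (chr3:153944644-153944893, minus strand): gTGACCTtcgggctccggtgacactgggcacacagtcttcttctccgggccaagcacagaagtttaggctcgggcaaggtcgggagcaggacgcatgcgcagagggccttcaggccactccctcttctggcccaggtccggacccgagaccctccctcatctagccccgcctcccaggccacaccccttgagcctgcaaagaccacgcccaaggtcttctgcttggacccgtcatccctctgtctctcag
Acadl (chr1:66863310-66863559, minus strand): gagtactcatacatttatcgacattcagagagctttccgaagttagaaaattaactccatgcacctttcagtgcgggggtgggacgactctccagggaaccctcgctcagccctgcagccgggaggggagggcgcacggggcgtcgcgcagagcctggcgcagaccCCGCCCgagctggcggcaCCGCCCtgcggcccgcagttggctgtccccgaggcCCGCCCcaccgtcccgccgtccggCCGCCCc
Acadvl (chr11:70015429-70015678, minus strand): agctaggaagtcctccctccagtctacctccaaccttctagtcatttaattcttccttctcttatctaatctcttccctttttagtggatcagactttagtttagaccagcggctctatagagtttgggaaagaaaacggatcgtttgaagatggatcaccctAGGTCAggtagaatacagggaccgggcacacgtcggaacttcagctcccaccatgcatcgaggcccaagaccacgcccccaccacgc

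The core motif AGGTCA, bound by receptors such as the PPAR and ERR families, was found once upstream of Acadm, with its first base 249 bases before the start site, and once upstream of Acadvl, 87 bases before it. It was not in the Acads or Acadl window. The GC box, a motif of Sp1-type factors, was found 4 times upstream of Acadl, once upstream of Acads (16 bases before the start site) and in neither of the other windows. Of 32851 RefSeq regions of the same length, 14.0% held the core motif and 32.7% the GC box. The content of G and C was highest for Acadl, at 68.0%, and lowest for Acadvl, at 49.6%. A match is a description of the letters only.

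Signals are given as normalized log2 values. Changes are GF minus CONV on the same scale, each with the standard error (SE) of the fit, from 6 arrays a group over both batches and 3 within a batch. Acads read 10.38, 10.37 and 10.34 on CONV replicates 1 to 3 of batch 1 and 9.93, 9.82 and 9.91 on GF replicates 1 to 3. The SD within these groups was 0.022 and 0.061, and the gap between the groups was 0.41. In batch 2 it read 10.49, 10.72 and 10.51 on CONV replicates 4 to 6 and 10.14, 9.97 and 10.27 on GF replicates 4 to 6. The groups did not overlap in either batch, and the gap was 0.21 in batch 2, where the arrays of a group were more spread.

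Over both batches Acads fell by 0.46 ± 0.07 (limma, adjusted p = 0.000607), or 1.38-fold. It ranked 254 by p among 8107 genes, and 6.65% of the genes had a lower value of the change. In batch 1 it fell by 0.48 ± 0.10, with an adjusted p of 0.00443, and in batch 2 by 0.45 ± 0.10, with an adjusted p of 0.00971. The effects in the batches differed by 0.03 ± 0.14 (adjusted p = 0.927), a difference well within its error. Acads was called over both batches under all 11 alternative settings and with each of the 12 arrays left out in turn (adjusted p = 0.000207 to 0.0440 and 0.000510 to 0.00258). When batch 2 was fitted alone, with 6 arrays, the fall there was not called (adjusted p = 0.134).

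Acadm, the medium-chain gene, read 11.82, 11.71 and 11.78 on the CONV arrays and 11.78, 11.74 and 11.68 on the GF arrays of batch 1. These groups overlapped. In batch 2 it read 13.02, 13.09 and 12.81 on the CONV arrays and 13.27, 13.10 and 13.24 on the GF arrays, where GF replicate 5 lay 0.012 above the highest CONV array. Its change was 0.10 ± 0.08 over both batches (adjusted p = 0.392), with a 95% interval of -0.07 to 0.26. Within batch 1 the change was -0.04 ± 0.09, with an adjusted p of 0.840. Within batch 2 it was 0.23 ± 0.09 (adjusted p = 0.104), and the difference between the batches did not pass (adjusted p = 0.232). The interval over both batches does not reach the -0.46 of Acads.

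Acadl, the long-chain gene, read 7.99, 8.50 and 8.37 on the CONV arrays and 7.21, 7.22 and 6.997 on the GF arrays of batch 1. The groups were 0.77 apart, and CONV replicate 1 was the lowest of its group. In batch 2 the CONV arrays read 7.33, 7.60 and 7.49 and the GF arrays 7.40, 7.44 and 7.29, and here the groups overlapped. Acadl fell by 1.14 ± 0.13 in batch 1, or 2.21-fold (adjusted p = 0.000123). In batch 2 its change was -0.10 ± 0.13 (adjusted p = 0.661). The effect in batch 2 was 1.04 ± 0.19 above that in batch 1 (adjusted p = 0.00636). Of the 5 members 2 were called for such a difference between the batches, against 8.73% of all genes. Over both batches together Acadl fell by 0.62 ± 0.17 (adjusted p = 0.0238), a mean of unlike effects. This call was lost when any of 5 arrays of batch 1 was left out, namely CONV replicates 2 and 3 and GF replicates 1, 2 and 3, at adjusted p = 0.0522 to 0.0577 within a range of 0.0138 to 0.0577 over the 12 arrays. The fall within batch 1 and the difference between the batches were called with each of the 12 arrays left out.

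Acadl was a dim row, and its deposited intensity is given here beside the background of each batch. Mean intensity was 362 ± 50.1 (SD) on CONV and 189 ± 11.4 on GF arrays of batch 1, where background averaged 56.6 to 58.7. In batch 2 it was 340.0 ± 15.8 and 326 ± 7.28, where background averaged 182 to 183 with an SD of 15.7 to 17.9. So a smaller part of the intensity stood above background in batch 2. After correction and normalization, though, the lowest mean was that of the GF arrays of batch 1, at 7.14. It was 7.47 on CONV and 7.38 on GF arrays of batch 2. The bearing of background on the smaller change in batch 2 was not tested. Acadl was detected on 11 of 12 arrays. Its detection p lay between the steps of single probes, so the row may combine several probes in a way the sources used here do not give. Without background correction the change over both batches was -0.42, and with the background inferred from all rows, a setting added after the data were seen, it was -0.25 (adjusted p = 0.0499). With that last setting the change in batch 1 was -0.47 (adjusted p = 0.000610) and the difference between the batches 0.44 (adjusted p = 0.0123). Both were still called, beside -1.14 and 1.04 in the main setting and -0.79 and 0.72 without background correction.

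Acadvl, the very long chain gene, read 12.56, 12.34 and 12.32 on the CONV arrays and 12.25, 12.29 and 12.24 on the GF arrays of batch 1. The groups were 0.027 apart. In batch 2 it read 10.68, 10.88 and 10.59 on the CONV arrays and 10.44, 10.22 and 10.31 on the GF arrays, 0.15 apart. Thus every GF array lay below every CONV array of its batch, with a narrow gap in batch 1. Acadvl fell by 0.27 ± 0.08 over both batches (adjusted p = 0.0299), or 1.21-fold. Within batch 2 the fall was 0.39 ± 0.10 (adjusted p = 0.0231). Within batch 1 the change was -0.15 ± 0.10 (adjusted p = 0.356). The difference between the batches did not pass (-0.25 ± 0.14, adjusted p = 0.335). The call over both batches was lost when any of 6 arrays was left out, namely CONV replicates 1, 4 and 5 and GF replicates 1, 3 and 6, at adjusted p = 0.0504 to 0.0656 within a range of 0.0290 to 0.0656. That within batch 2 was lost when CONV replicate 5 was left out (adjusted p = 0.0716), when GF replicate 6 was (adjusted p = 0.0510), and when batch 2 was fitted alone (adjusted p = 0.164).

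**Figure D2:**
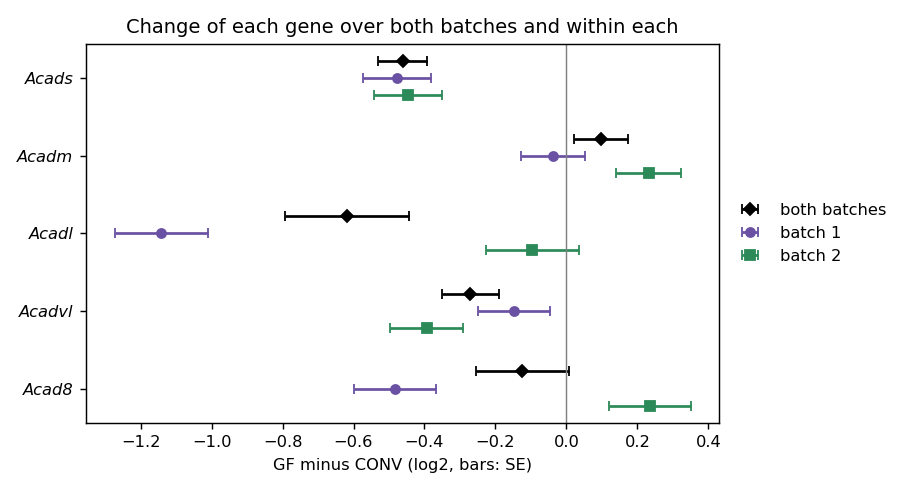
Change of each member, GF minus CONV (log2, horizontal axis), over both batches (black diamonds) and within batch 1 (purple circles) and batch 2 (green squares); bars are the SE. Acads stood at -0.48 and -0.45 in the batches, whereas Acadl stood at -1.14 and -0.10 and Acad8 at -0.48 and 0.23.

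Acad8, of valine breakdown, was lower in GF in batch 1 alone. It read 7.74, 7.67 and 7.63 on the CONV arrays and 7.23, 7.27 and 7.10 on the GF arrays of batch 1, which lay 0.36 apart. In batch 2 the CONV arrays read 7.001, 6.95 and 6.993 and the GF arrays 7.47, 6.95 and 7.22, so the groups overlapped and GF replicate 4 was the highest. It fell by 0.48 ± 0.12 in batch 1 (adjusted p = 0.0107). Its change was 0.23 ± 0.12 in batch 2, with an adjusted p of 0.189, and -0.12 ± 0.13 over both batches, with an adjusted p of 0.540. The batches differed by 0.72 ± 0.16 (adjusted p = 0.0204). With GF replicate 3 left out the fall in batch 1 was not called (adjusted p = 0.0501), and with GF replicate 5 left out the change in batch 2 was called as higher (0.36, adjusted p = 0.0214). The difference between the batches was not called with CONV replicate 1, CONV replicate 2 or GF replicate 3 left out, at adjusted p = 0.0506 to 0.0611 within a range of 0.00261 to 0.0611.

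In batch 1 Acad8 was not above background by its detection p on any GF array and was above it on 1 of 3 CONV arrays, so the 1.40-fold between the normalized means there compares signals that were mostly not detected. The size of this fall moved with the background setting: the change was -0.31 without correction and -0.15 with the background inferred from all rows, and the difference between the batches moved to 0.46 and 0.21. Both stayed past the threshold in these settings. Its mean intensity was 255 ± 9.89 (SD) on CONV and 194 ± 8.20 on GF arrays of batch 1, and 288 ± 1.96 and 310 ± 25.5 in batch 2. These intensities in batch 1 were well above the inferred background mean, and the detection p of this row, too, lay between the steps of single probes. Acad8 was detected on 7 of 12 arrays in all.

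**Figure D3:**
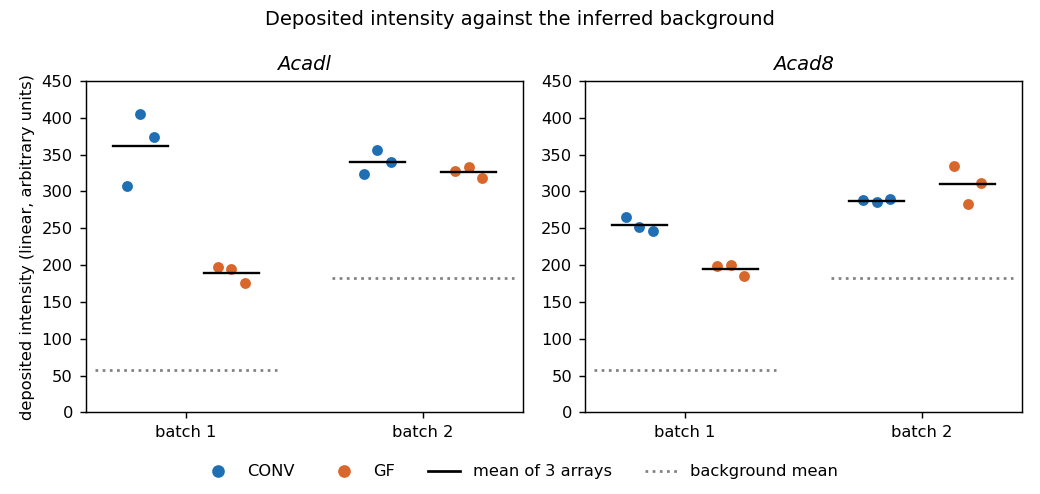
Deposited intensity (linear scale from 0, arbitrary units, vertical axis) of Acadl and Acad8 on each array, with CONV in blue, GF in orange, a line at the mean of 3 arrays and a dotted line midway between the lowest and highest inferred background mean of the batch's arrays. Acadl stood further above background on the CONV arrays of batch 1 than on any array of batch 2.

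The chain-length enzymes were then compared with each other as changes within an array, since levels of different rows cannot be set against each other. For each of 6 pairs the log2 difference on an array was compared between GF and CONV by an exact two-sided permutation test within batches (400 arrangements, smallest possible p = 0.005), with p adjusted over the 6 pairs. Acadm differed in its change from each of the other 3 genes. The change of Acads was lower than that of Acadm by 0.56 ± 0.05 (exact p = 0.005, adjusted p = 0.03), and GF and CONV arrays did not overlap in either batch (-0.44 and -0.68). The pair difference of Acads minus Acadm read -1.44, -1.34 and -1.44 on CONV and -1.84, -1.93 and -1.77 on GF arrays of batch 1. In batch 2 it read -2.53, -2.37 and -2.30 on CONV and -3.13, -3.13 and -2.97 on GF arrays. In both batches each GF array thus held less short-chain relative to medium-chain signal than each CONV array.

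The change of Acadm was 0.72 ± 0.12 above that of Acadl (exact p = 0.01, adjusted p = 0.03), with 1.10 in batch 1 and 0.33 in batch 2, where the arrays of the groups overlapped. With the background inferred from all rows this difference was 0.35 (adjusted p = 0.015). It was 0.37 ± 0.04 above that of Acadvl (exact p = 0.015, adjusted p = 0.03), with 0.11 in batch 1, where the arrays of the groups overlapped, and 0.63 in batch 2. This last call was lost without CONV replicate 1 (adjusted p = 0.05, within a range of 0.015 to 0.05). The other pairs did not pass. Acads was 0.19 ± 0.06 below Acadvl (exact p = 0.04, adjusted p = 0.06; -0.33 and -0.05 in the batches), and without GF replicate 6 this pair did pass (adjusted p = 0.015, within a range of 0.015 to 0.12).

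Acads and Acadl moved apart in opposite ways in the batches: the change of Acads was 0.66 above that of Acadl in batch 1 and 0.35 below it in batch 2, with a mean of 0.16 ± 0.12 (exact p = 0.44, adjusted p = 0.44; 95% interval -0.11 to 0.42). With the background inferred from all rows this mean was -0.29 (adjusted p = 0.036) and without background correction -0.00134. In the all-rows setting the change in batch 1 was -0.56 for Acads and -0.47 for Acadl, so Acads was then the lower of the pair in both batches and the opposite directions were lost. For Acadl and Acadvl the difference was -0.99 in batch 1 and 0.30 in batch 2, with a mean of -0.35 ± 0.13 (exact p = 0.215, adjusted p = 0.258). With the background inferred from all rows it was 0.054. The SE and intervals here rest on the spread within the groups of 3 arrays and take no account of how the batches differ. Ordered from the lowest change, the genes stood as Acadl, Acads, Acadvl and Acadm in batch 1 and as Acads, Acadvl, Acadl and Acadm in batch 2, so neither order followed chain length and Acadm came last in both. With the background inferred from all rows Acads and Acadl changed places in batch 1. The plot of within-array differences shows the arrays behind these orders.

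**Figure D4:**
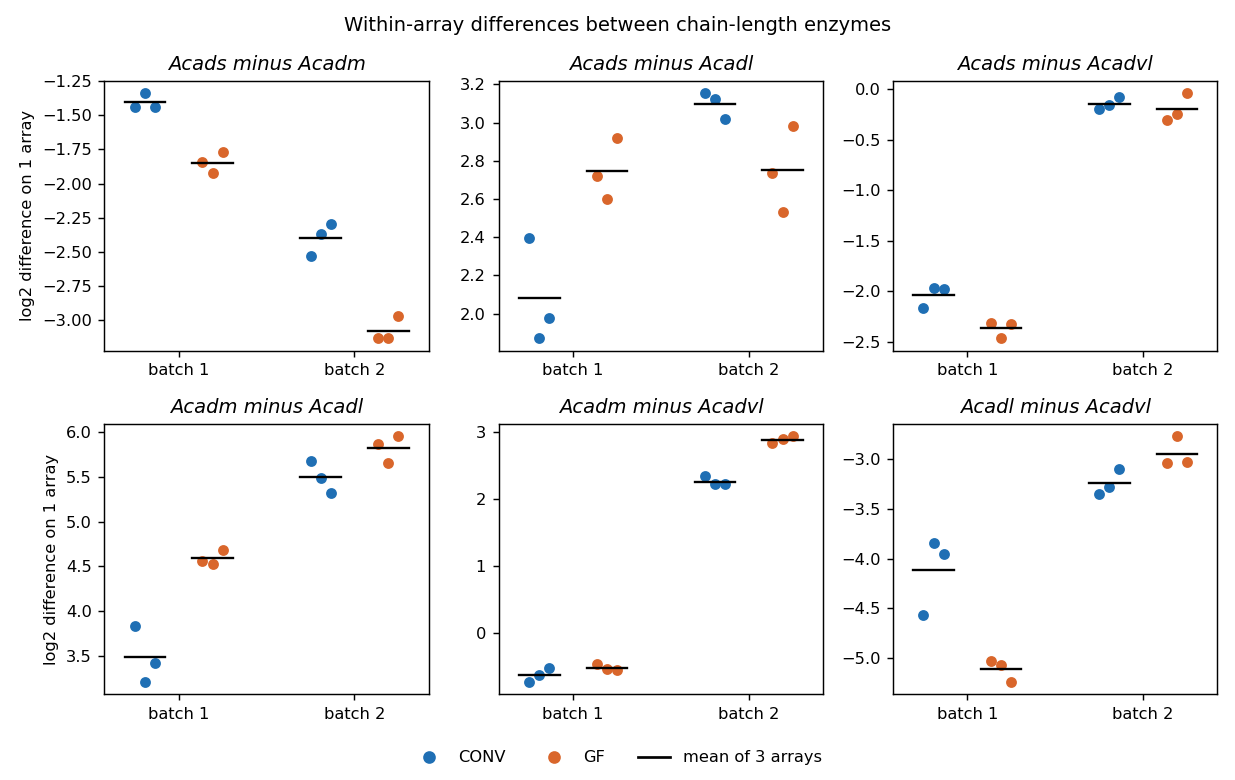
Log2 difference between 2 chain-length genes on each array (vertical axis, own scale in each panel), by batch, with CONV in blue, GF in orange and a line at the mean of 3 arrays; the place of a batch on the axis has no meaning across rows. For Acads minus Acadm the GF arrays lay below the CONV arrays in both batches, and for Acadl minus Acadvl they lay below in batch 1 and above in batch 2.

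The partners of the dehydrogenases were read from the same fit, beside a median change of 0.01 over all tested genes. Of the electron acceptors Etfa, Etfb and Etfdh limma called 0 over both batches, with a median of -0.20 over the 3 genes. Among all tested genes 23.2% were called. At an unadjusted p under 0.05 there were 2 of the 3. The share of all genes at that looser threshold was larger than 23.2% and is not given here, so no excess is read from this count. Etfa, the alpha subunit of the flavoprotein, was at -0.20 ± 0.07 (adjusted p = 0.0581), with -0.20 in both batches. Etfb, the beta subunit, fell by 0.63 ± 0.10 in batch 2 (adjusted p = 0.00170) and was at 0.02 ± 0.10 in batch 1, and the batches differed by -0.65 (adjusted p = 0.0149). Etfdh, which feeds ubiquinone, fell by 0.47 ± 0.09 in batch 1 (adjusted p = 0.00379) and was at 0.06 ± 0.09 in batch 2, and the batches differed by 0.53 (adjusted p = 0.0281).

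Of 8 genes for the later steps of mitochondrial beta-oxidation 6 were tested, 1 fell, 0 rose and 5 did not pass, with a median of -0.02. Of all 8107 tested genes 12.0% were called lower and 908 higher. Hadhb, the thiolase subunit of the trifunctional protein, was the gene that fell, by 0.27 ± 0.08 (adjusted p = 0.0327). Decr1, a reductase for unsaturated acyl-CoA, was at -0.26 ± 0.12 (adjusted p = 0.137), and Eci2, an enoyl-CoA isomerase, at 0.21 ± 0.10 (adjusted p = 0.155). Eci2 rose by 0.48 ± 0.09 in batch 2 alone (adjusted p = 0.00566) and was at -0.05 ± 0.09 in batch 1. Echs1 and Hadha were not analysed here. Among 9 genes of fatty acid activation and entry 4 were tested and 1 rose, where 908 of all 8107 tested genes did. The gene that rose was Acsl1, a long-chain acyl-CoA synthetase, at 0.48 ± 0.15 (adjusted p = 0.0327). It was called within batch 1 (0.67 ± 0.20, adjusted p = 0.0311) and not within batch 2 (0.30 ± 0.20, adjusted p = 0.333), a difference that did not pass (adjusted p = 0.473). Cpt1b, a carnitine palmitoyltransferase, was at 0.39 ± 0.21 (adjusted p = 0.196) and Acsl3 at -0.23 ± 0.10 (adjusted p = 0.125). Acsl3, another such synthetase, fell by 0.47 ± 0.11 within batch 2 (adjusted p = 0.0116) and was at 0.01 ± 0.11 in batch 1, and this difference did not pass (adjusted p = 0.0679). The carnitine shuttle genes Cpt1a, Cpt2 and Slc25a20 were not analysed here.

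Of 5 other relatives of the family 2 were tested, and 1 rose, where 908 of all 8107 tested genes did. Acad10, which carries a dehydrogenase domain, rose by 0.57 ± 0.08 (adjusted p = 0.000304), with 0.53 in batch 1 and 0.61 in batch 2. Ivd, the isovaleryl-CoA dehydrogenase of leucine breakdown, was at -0.07 ± 0.06 (adjusted p = 0.440). Within batch 1 it was called lower (-0.20 ± 0.07, adjusted p = 0.0481), and in batch 2 it was at 0.06 ± 0.07 (adjusted p = 0.602). This difference did not pass (adjusted p = 0.114).

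Around Acad8, genes of branched-chain amino acid breakdown were read, of which 0 of 9 tested rose, where 908 of all 8107 tested genes did. Bckdhb, a subunit of the branched-chain ketoacid dehydrogenase, fell by 0.42 ± 0.12 (adjusted p = 0.0260). Pcca, a propionyl-CoA carboxylase subunit, was at -0.30 ± 0.10 over both batches (adjusted p = 0.0587) and fell by 0.57 ± 0.09 in batch 1 (adjusted p = 0.00133), and Hibadh, of valine breakdown, at -0.05 ± 0.06 (adjusted p = 0.624). Of the complex I assembly partners of Acad9 3 of 5 were tested and limma called 0. Among all tested genes 23.2% were called. At an unadjusted p under 0.05 there were also 0 of the 3, and the share of all genes at that looser threshold is not given here. Ecsit was at 0.02 ± 0.10, Ndufaf1 at -0.14 ± 0.08 and Tmem126b at -0.17 ± 0.12 (adjusted p = 0.212 to 0.920).

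Of 7 transcription factors and coactivators that act on fatty acid oxidation genes 6 were tested and limma called 0. Among all tested genes 23.2% were called. At an unadjusted p under 0.05 there were 2 of the 6. The share of all genes at that looser threshold was larger than 23.2% and is not given here, so no excess is read from this count. Pparg, a nuclear receptor of lipid metabolism, was at -0.29 ± 0.11 (adjusted p = 0.0661), its coactivator gene Ppargc1a at 0.40 ± 0.17 (adjusted p = 0.112) and Ppargc1b at -0.19 ± 0.10 (adjusted p = 0.201). Within batch 1 Ppargc1b fell by 0.45 ± 0.10 (adjusted p = 0.00940), and in batch 2 it was at 0.06 ± 0.10, a difference between the batches that did not pass (adjusted p = 0.0563). Hnf4a, an epithelial nuclear receptor, was at 0.15 ± 0.09 (adjusted p = 0.260).

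Genes whose signal ran most like that of a member were taken by Pearson's r over the 12 arrays after the mean of each batch was removed, as a description, since the points share the group difference. For Acads these were Emc9 (r = 0.991), a gene of the endoplasmic reticulum membrane complex, Pole (r = 0.982), the catalytic subunit of DNA polymerase epsilon, and Muc13 (r = 0.979), a membrane mucin, which changed by -0.77, -0.78 and -0.21. For Acadl they were Zc3h12a (r = 0.963), an RNA-degrading enzyme, Idh3g (r = 0.963), an isocitrate dehydrogenase subunit of the citric acid cycle, and Triap1 (r = 0.960). Idh3g was at -0.46 in batch 1 and -0.06 in batch 2. For Acadvl they were Srpk1 (r = 0.950), Fah (r = 0.943), the last enzyme of tyrosine breakdown, and Mycbpap (r = 0.937). For Acadm, with small changes between the groups, they were Mybpc3 (r = 0.941), Jak2 (r = 0.938) and Kctd12 (r = 0.922), none of which passed the test (adjusted p = 0.234 to 0.629).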

How the data were processed

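RNA of 6 GF and 6 CONV colonocyte samples was measured on Illumina bead arrays from biotin-labelled cRNA, per the labels' protocols. The submitters' processing notes name limma with no version; the sources used here do not give the array design, scanner software or genome build. The deposited values are natural logs of intensity: raised to base e, 95.5% to 98.1% of the values of an array came out with no more than 7 significant digits, and with base 2 at most 10.2% did. Any 2 arrays of batch 2 had 1831 to 1992 exact values in common, and those of batch 1 had 186 to 216. Whether the authors had normalized batch 2 is not stated. Deposited detection p-values were whole multiples of 1/1603 in 10223 rows of batch 1 and of 1/936 in 9624 rows of batch 2, and lay between such steps elsewhere. A value table of 15147 rows was equal in all 15132 rows with a shared name.

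Intensities were corrected with normexp (offset 16), with the background mean and SD inferred from rows on the steps, taken to log2 and then quantile normalized across the 12 arrays, in limma 3.58.1 under R 4.3.3. A row was kept at a detection p under 0.05 on at least 3 arrays (8122 rows of 8107 genes, with a gene's brightest row used). Of the row names 11696 were current symbols and 2532 older ones, updated through RefSeq's table of GRCm38.p6, and 926 were kept as they stood. limma's lmFit and eBayes were fitted with batch and group, and with a group effect in each batch for the within-batch values and their difference, two-sided, with Benjamini-Hochberg adjustment over all genes tested and a threshold of 0.05. The fits were tested on simulated data. The number of arrays limits the precision.

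The members, lists and tests were chosen with earlier results of these data known. Genes named were the members, from each list the up to 3 genes with the smallest adjusted p and the gene with the highest signal, and for each chain-length gene the 3 genes of most like pattern. Alternatives covered background, normalization, filter, batch term, replicate block, the value table and arrays left out in turn. Results of some genes of the lists are not reported here.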

Additional observations from a re-analysis of the deposited data

Results flagged for a closer look

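The effect of the germfree state differed between the batches by limma's interaction for 7 of 41 named genes, against 8.73% of all genes. Many named genes were picked by a small p or by likeness to a member in these same data, so the count is a description. The effect in batch 2 minus that in batch 1 (log2) was 1.04 for Acadl and 0.72 for Acad8 among the dehydrogenases. It was -0.65 for Etfb, 0.53 for Etfdh, 0.53 for Eci2 and 0.56 for Pcca among the related genes, and 0.89 for Zc3h12a. Zc3h12a was picked for its like pattern to Acadl on these arrays, so its difference is no separate result. In 82 groups of 6 arrays of these genes, with batch means removed, no array stood apart by Dixon's criterion. Removing the batch means ties the values within a batch together, so the criterion could hardly have marked any array. No conclusion on aberrant arrays is drawn from it.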

How the results depend on the processing

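Acads kept its fall under all 11 other settings (-0.54 to -0.43) and with each array left out. Without a batch term Acadl (-0.62, adjusted p = 0.163) and Acadvl (-0.27, adjusted p = 1.00) were not called, and 244 genes were, against 1883. The count was 1172 with the replicate number as a block. Whether the numbers pair the samples is not known. Same-numbered deviations correlated at -0.26 to 0.04, and 1 of 6 GF arrays correlated best with its own number. These deviations were taken from means of few arrays, so they cannot decide whether the samples were paired. With this block Acadl (-0.62, adjusted p = 0.0868), Acadvl (-0.27, adjusted p = 0.0956) and the batch difference of Acad8 (0.72, adjusted p = 0.0504) were not called, nor were Acads and Acadvl within batch 2 (adjusted p = 0.0548 and 0.0775) or any pair in an exact test over 64 sign flips, whose smallest p is 0.03125 (Acads against Acadm -0.56, Acadm against Acadl 0.72 and Acadm against Acadvl 0.37, adjusted p = 0.0938 each). The batch difference of Acads, near 0, changed sign with the 75th percentile (-0.034) and cyclic loess (-0.022). Background settings moved values of the dim Acadl and Acad8, as given with them, and pairs with Acadl: Acads against Acadl was -0.00134 without correction and -0.29 with background from all rows, a setting added after the data were seen, under which Acadl against Acadvl was 0.054 and Acads against Acadvl -0.24 (adjusted p = 0.036). With arrays left out in turn, Acadl ranged from -0.71 to -0.51, Acadvl from -0.30 to -0.22, the batch difference of Acads from -0.042 to 0.11, that of Acad8 from 0.59 to 0.84, Acads against Acadvl from -0.23 to -0.16 and Acadm against Acadvl from 0.34 to 0.39. Acad8 did not pass the stricter filter and has no value there.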
